A study of Solanum lycopersicum with 12 samples.

Results

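The comparison is between tomato plants whose seeds carried a coat of amdS122 spores and tomato plants whose seeds carried a coat of amdS6 spores. These strains are transformants of the biocontrol fungus Trichoderma harzianum T34, and both carry the acetamidase gene amdS of Aspergillus nidulans under the gpdA promoter of that fungus. Acetamidase releases ammonium from acetamide. amdS6 holds 1 copy of the cassette and amdS122 holds 2 copies, and each strain is a single clone derived from 1 spore, so that the copy number and the site of insertion or other traits of the clone cannot be told apart. The comparison uses 6 of the 12 arrays of the series, namely the 3 of amdS6 and the 3 of amdS122, chosen by their labels. The other arrays, 3 of plants from untreated seeds (control) and 3 of plants treated with the wild-type T34, entered the same fit and show where a level lies relative to plants without a transformant. Plants of the cultivar Marmande grew in autoclaved soil in a greenhouse for 3 weeks, and each array carried RNA from the aerial parts of 5 pooled plants. The labels call the tissue leaves, and the concentration of the spore suspension differs between the labels and the paper. The spread given here is the spread between such pools.

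Trichoderma species live on and in roots and alter gene expression in the shoot. Plants answer microbes and wounding through hormone pathways of which jasmonate, salicylic acid and ethylene are the best known. Jasmonate is made from fatty acids by lipoxygenase, allene oxide synthase, allene oxide cyclase and a reductase, and in tomato it induces wound proteins such as leucine aminopeptidase and arginase. Salicylic acid and ethylene induce pathogenesis-related (PR) proteins, among them β-1,3-glucanases and chitinases, which attack fungal cell walls. Growth of a young shoot rests on cell division, which is driven by cyclins and cyclin-dependent kinases, and on loosening of the cell walls of expanding cells.

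Of 10038 tomato probe sets tested, 72 (0.717%) differed between amdS122 and amdS6 by at least 2-fold at an adjusted p under 0.1, and such probe sets are named called below. The calls ran mostly one way. Transcripts were lower with amdS122 for 66 probe sets (0.658%) and higher for 6 (0.0598%). The arrays of both groups did not overlap for any of the 72, whereas 46.1% of all probe sets did not overlap, and the largest adjusted p among the calls was 0.00245. With no fold limit, 1952 probe sets (19.4%) were higher and 1879 (18.7%) lower with amdS122, so that small differences ran about equally in both directions. With each array centred on its median this split became 2674 higher and 1510 lower, and with the arrays scaled on the spiked-in hybridisation controls it became 62 higher and 6132 lower. The median log2 difference between amdS122 and amdS6 over all probe sets was 0.02. The fold limit separates neighbours of like size. The weakest call, a probe set with no gene name, lay at -1.002 on the log2 scale. The array design puts it in the same transcript cluster as the probe set described in the paper as neryl diphosphate synthase 1. CELLULASE, an endo-1,4-β-glucanase, lay just outside at -0.997. Of the called probe sets 23 have a gene symbol, 2 more have a description in the tables of the paper, and 47 have neither, 46 of them lower with amdS122.

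**Figure D1:**
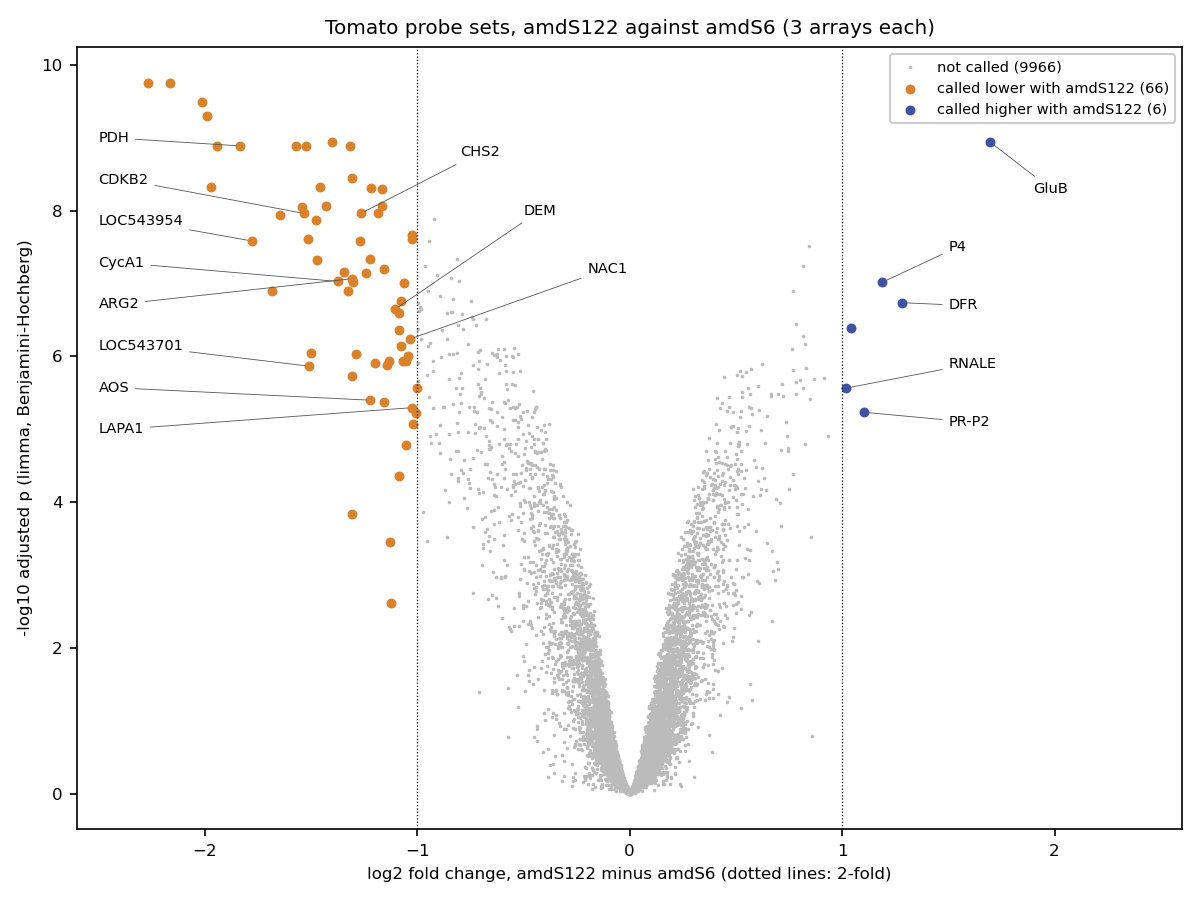
Log2 fold change of amdS122 minus amdS6 (x axis) against -log10 of the adjusted p (y axis) for the 10038 tomato probe sets. The 66 probe sets called lower with amdS122 (orange) reach -2.27 and the 6 called higher (blue) reach 1.70, and names mark genes described in the text.

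Signal and RNA quality of the 6 arrays were as follows. Arrays of the same group correlated at 0.998 or more, arrays of amdS6 with arrays of amdS122 at 0.994 to 0.995, and the median SD of a probe set was 0.063 with amdS6 and 0.066 with amdS122 on the log2 scale. Averaged over actin, ef1a and gapdh, the 3′ signal of a transcript exceeded its 5′ signal by 3.06 ± 0.064 with amdS6 and by 2.85 ± 0.13 with amdS122 (log2, SD, n = 3 arrays; exact permutation test, two-sided, p = 0.2, where 0.1 is the smallest value that 3 against 3 arrays allow). Of the 3 transcripts ef1a separated the groups, with 4.85 to 4.96 for amdS6 and 4.41 to 4.77 for amdS122 (p = 0.1 by the same exact test), and its own part in the results was not tested. With the average over the 3 transcripts as a covariate, and no fold limit, 1275 probe sets passed as higher and 1382 as lower. The hybridisation controls averaged 10.15 ± 0.11 with amdS6 and 10.48 ± 0.097 with amdS122 (log2, SD, n = 3), and these groups did not overlap (p = 0.1 by the same exact test). Scaling on them lowers the median of all probe sets to -0.32, moves every difference by the same amount and gives 192 calls lower and 1 higher, that of GluB. The values below are those of the deposited scale and were not centred on the array medians. On this scale the median difference over all probe sets was 0.02. The 4 markers of green aerial tissue differed by -0.01 to 0.06 (log2) and none passed the adjusted p. Their mean signals lay between 14.08 and 14.26, close to the highest signal on the arrays (14.74), where differences may be compressed. Of 5 probe sets listed as root markers 2 were higher with amdS122 (40%, against 19.4% of all), AMT1-2 by the most (log2 0.56), and 1 was lower (20%, against 18.7%). AMT1-2 was not among the root markers first planned and also counts among the nitrogen genes below. It had the highest mean signal of the 5 in these aerial parts (11.48). Of 6 ripe fruit probe sets 3 were higher (50%, against 19.4% of all), by at most 0.34, which is a probe set of Psy1. Their part in the results was not tested. Fewer cells of a type and less RNA per cell cannot be told apart in such samples.

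The transcripts of the cell division machinery were lower with amdS122. Of 15 probe sets of cyclins, cyclin-dependent kinases, their inhibitors, the replication clamp PCNA and histone H1, 10 were lower at the adjusted p and none was higher. The share lower was 66.7%, where all probe sets gave 18.7%. The calls numbered 2, and the median log2 difference was -0.36. CDKB2, a B-type cyclin-dependent kinase of the plant lineage that acts around mitosis, read 8.95, 8.85 and 8.88 on the amdS6 arrays and 7.34, 7.44 and 7.30 on the amdS122 arrays (log2 signal). It read 8.10, 8.25 and 8.31 in control and 8.17, 8.33 and 8.26 with T34, so that every array of amdS6 stood above and every array of amdS122 below these. The difference between the transformants was 2.89-fold (log2 fold change -1.53, standard error 0.063, adjusted p = 1.09e-08 by limma). CycA1, an A-type cyclin, had the same order, with 8.53, 8.67 and 8.57 for amdS6, 7.26, 7.21 and 7.18 for amdS122, 7.94, 8.07 and 8.18 for control and 7.75, 7.90 and 8.00 for T34. Its difference was 2.59-fold (adjusted p = 9.36e-08). For CDKB2 the log2 difference from control was 0.68 with amdS6 (adjusted p = 5.77e-06), -0.86 with amdS122 (adjusted p = 5.88e-07) and 0.04 with T34 (adjusted p = 0.802).

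The mitotic cyclin CycB2 was 1.92-fold lower with amdS122 than with amdS6 (6.27, 6.53 and 6.66 against 5.47, 5.58 and 5.59, adjusted p = 1.22e-05) and thus missed the fold limit. CDKB1, another B-type kinase, was 1.60-fold lower, the A-type cyclin CycA2 1.59-fold, the D-type cyclin CYCD3, which acts at the entry into the cycle, 1.37-fold and PCNA 1.28-fold. The kinase inhibitors krp2 and krp1, which restrain the cycle, were lower as well, by 1.68-fold and 1.23-fold. One probe set of histone H1 was 1.27-fold lower and the other gave -0.12 (adjusted p = 0.516) with overlapping arrays. The members that did not pass were that probe set and CDKA1 at -0.12, cdc2A-2 at -0.06, CycA3 at -0.03 and CDKC at -0.03 (log2). CDKA1 and cdc2A-2 belong to the A type of the kinases, whose transcripts are known to be present through the whole cycle. For PCNA, CycA2 and CDKB1 the difference from control did not pass with amdS6 (log2 -0.05, 0.07 and 0.14) and passed with amdS122 (-0.41, -0.60 and -0.54). DEM, a gene needed for the shoot and root meristems of tomato embryos, was called with 7.97, 8.00 and 7.98 for amdS6 against 6.80, 7.02 and 6.83 for amdS122 (2.15-fold lower, adjusted p = 2.24e-07), while its relative DEM2 differed by 0.09 (adjusted p = 0.203). Of 6 shoot meristem and vascular markers none was lower with amdS122 and 2 were higher (33.3%, against 19.4% of all), KN1 by 1.33-fold among them. Mean signals in this list lay between 3.98 and 5.32, close to the lowest signal on the arrays (3.31).

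**Figure D2:**
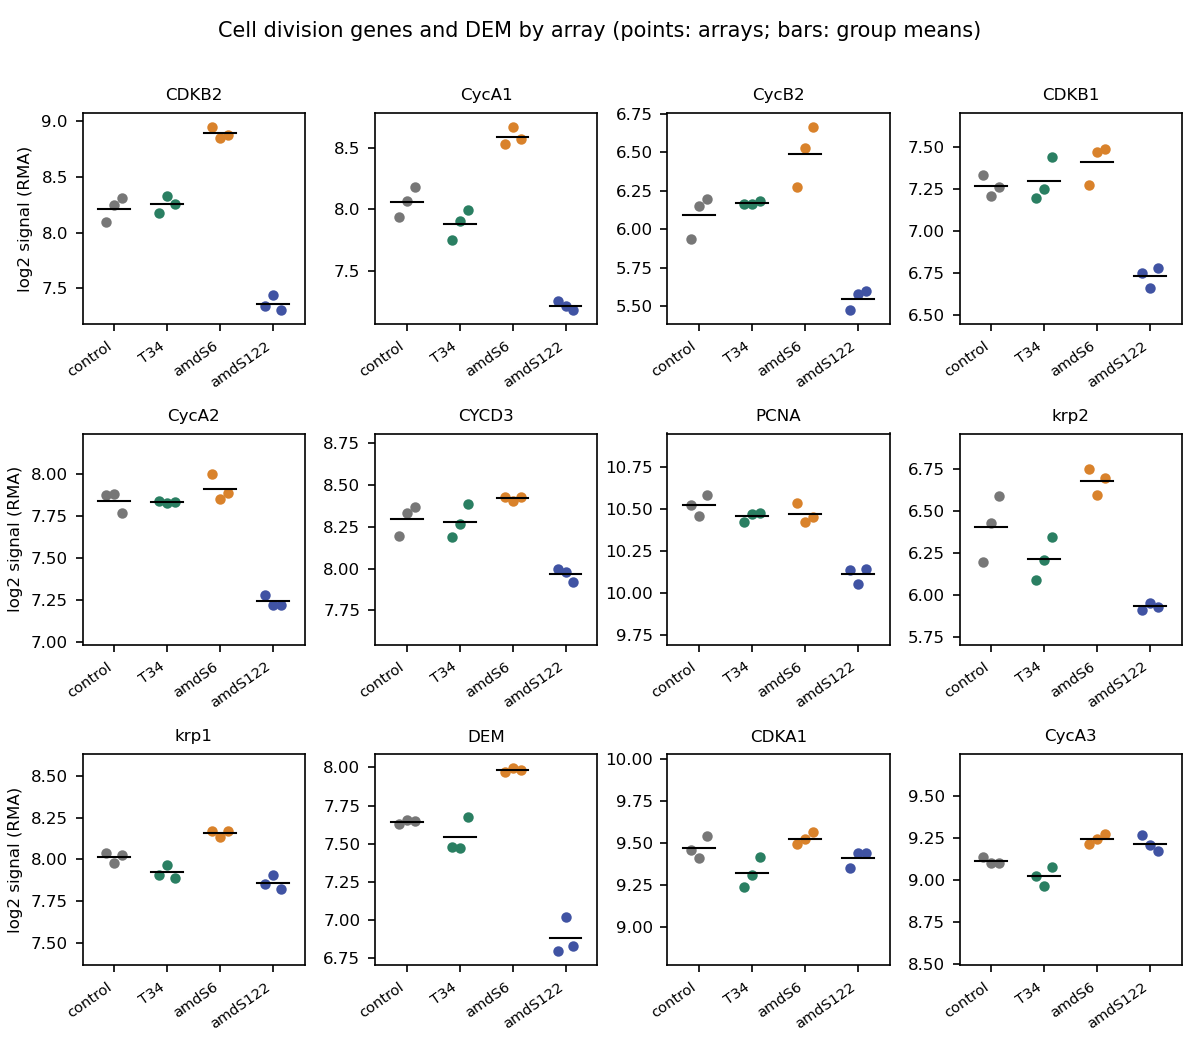
Log2 signal (y axis, range differs between panels) of 11 cell division genes and DEM on each array of the 4 groups, with bars for the group means. CDKB2, CycA1, CycB2, CDKB1, CycA2, CYCD3, krp2 and DEM lie lowest on the 3 amdS122 arrays, and CDKA1 and CycA3 show little difference.

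Of 25 probe sets of jasmonate synthesis and wound response, 12 (48.0%) were lower with amdS122 than with amdS6 and 5 (20%) were higher at the adjusted p, where all probe sets gave 18.7% and 19.4%. The 5 called were lower, and the median log2 difference was -0.10. AOS, allene oxide synthase, read 6.20, 6.36 and 6.19 with amdS6 and 5.06, 5.26 and 4.76 with amdS122, a 2.33-fold difference (log2 -1.22, standard error 0.10, adjusted p = 3.99e-06). Control read 6.35, 6.49 and 6.52 and T34 6.94, 6.98 and 6.92, so that amdS122 stood lowest of the 4 groups. loxD, the lipoxygenase that feeds this step, was 1.54-fold lower (8.37, 8.33 and 8.37 against 7.79, 7.76 and 7.66). The later enzymes AOC and OPR3 were lower by 1.12-fold and 1.15-fold, and MYC2, a transcription factor of the pathway, by 1.24-fold.

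Of the wound proteins, LAPA1 and ARG2 were called lower. LAPA1, a leucine aminopeptidase, read 8.97, 9.13 and 9.09 with amdS6 and 8.11, 8.12 and 7.88 with amdS122 (2.04-fold lower, adjusted p = 5.05e-06), and its relative LAPA2 differed by 0.08 (adjusted p = 0.26). The 2 called probe sets of ARG2, a wound-inducible arginase, were 2.47-fold and 2.09-fold lower, with 7.90, 8.00 and 8.09 against 6.81, 6.66 and 6.60 on the first of them. The first can also bind transcripts of related genes by its design, the remaining probe set of ARG2 gave -0.06 at signals of 4.43 to 4.58, and ARG1 was 1.14-fold lower. LOC543954, to which RefSeq gives the synonym PIIF, was counted in this list, although its role is not annotated in the sources used here. It was 3.43-fold lower (8.89, 8.91 and 8.95 against 7.11, 7.05 and 7.26, adjusted p = 2.6e-08). Against control ARG2 was higher with amdS6 (log2 0.84 for both called probe sets) and with T34 (0.41 and 0.48), and lower with amdS122 (-0.46 and -0.23). The members higher with amdS122 included CEVI-1, a peroxidase, by 1.42-fold and the lipoxygenase TomloxE by 1.31-fold. Scaled on the hybridisation controls none of the 25 probe sets of this list was higher, where 62 of all 10038 were. LAPA1 fell under the 2-fold limit with arrays centred on their medians (log2 -0.99), after further quantile normalization (-0.99), without amdS6 replicate 2 (-0.99) and without amdS122 replicate 3 (-0.95).

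PR proteins differed in the opposite direction. Of 16 probe sets of PR proteins and salicylic acid signaling, 12 were higher with amdS122 than with amdS6 and 2 were lower. These shares were 75% and 12.5%, against 19.4% and 18.7% of all probe sets. The calls were 3, all higher, and the median log2 difference was 0.67. GluB, a basic β-1,3-glucanase, read 8.28, 8.32 and 8.40 with amdS6 and 10.08, 9.97 and 10.05 with amdS122, and the 95% interval of its log2 difference ran from 1.59 to 1.81. P4, a PR-1 protein, was 2.28-fold higher with amdS122 (8.61, 8.57 and 8.66 against 9.69, 9.83 and 9.88, adjusted p = 9.62e-08). PR-P2, a PR-4 protein, was 2.15-fold higher (7.52, 7.36 and 7.64 against 8.63, 8.45 and 8.75, adjusted p = 5.85e-06). The groups did not overlap for any of the 3, which also held for 46.1% of all probe sets.

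Among the other members the chitinase CHI9 was 1.79-fold higher (8.85, 8.82 and 8.88 against 9.74, 9.67 and 9.67), the osmotin-like protein NP24-I 1.74-fold, the subtilisin-like protease P69B 1.71-fold, PR1b1 1.65-fold on its brighter probe set, TSI-1 1.64-fold and the chitinase CHI3 1.54-fold. The dimmer probe set of PR1b1 gave -0.06 with overlapping arrays, and PR-5 gave 0.18 (adjusted p = 0.23), at levels that were lower than in control with both transformants (log2 -1.76 and -1.58). The 2 members lower with amdS122 were TPP3, a defensin homolog, by 1.99-fold (8.63, 8.70 and 8.66 against 7.70, 7.69 and 7.63) and the chitinase CHI17 by 1.62-fold. Relative to control the PR transcripts did not share 1 pattern. GluB, CHI9, P69B and NP24-I were lower with amdS6 by 2.07, 1.17, 1.22 and 0.90 (log2), and with amdS122 by 0.37, 0.33, 0.45 and 0.09, the last of which did not pass (adjusted p = 0.248). PR-P2 was higher than control with amdS122 (log2 0.84, adjusted p = 2.58e-05), and with amdS6 it was lower by 0.26 (adjusted p = 0.0494). Scaled on the hybridisation controls, 9 of the 16 stayed higher at the adjusted p, where 62 of all 10038 probe sets were higher. Of the 3 called only GluB kept its call with this scaling, with P4 at 0.86 and PR-P2 at 0.77 on the log2 scale. RNALE, an extracellular ribonuclease of tomato, was also called higher, with 6.05, 6.08 and 6.12 for amdS6 and 7.11, 7.26 and 6.94 for amdS122 (2.02-fold, adjusted p = 2.73e-06), and it fell below the fold limit without amdS122 replicate 2 (log2 0.94) and with the RNA quality signal as a covariate (0.98).

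Of the flavonoid genes 1 was called lower and 1 higher. CHS2 and CHS1 encode chalcone synthase, the enzyme of the first step. CHS2 read 10.65, 10.64 and 10.61 with amdS6 and 9.35, 9.42 and 9.33 with amdS122 (2.40-fold lower, adjusted p = 1.09e-08), and CHS1 was 1.70-fold lower (9.18, 9.10 and 9.11 against 8.39, 8.33 and 8.39). DFR, the dihydroflavonol reductase of the later steps toward anthocyanins, was 2.43-fold higher with amdS122 (5.37, 5.41 and 5.38 against 6.68, 6.71 and 6.61, adjusted p = 1.83e-07), and no array of one transformant reached the range of the other. Against control CHS2 was higher by 1.51 (log2) with amdS6 and by 0.24 with amdS122, whereas DFR was lower by 0.49 with amdS6 and higher by 0.79 with amdS122. Of the 9 probe sets of flavonoid and phenolic synthesis 2 passed the adjusted p as higher (22.2%) and 3 as lower (33.3%). All probe sets gave 19.4% and 18.7%. The last of the lower members was hqt (log2 -0.34). THT7-1, a hydroxycinnamoyl transferase, was 1.27-fold higher, and the tyramine hydroxycinnamoyl transferase of the real-time PCR assays, which is not in this list, was 1.21-fold lower.

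**Figure D3:**
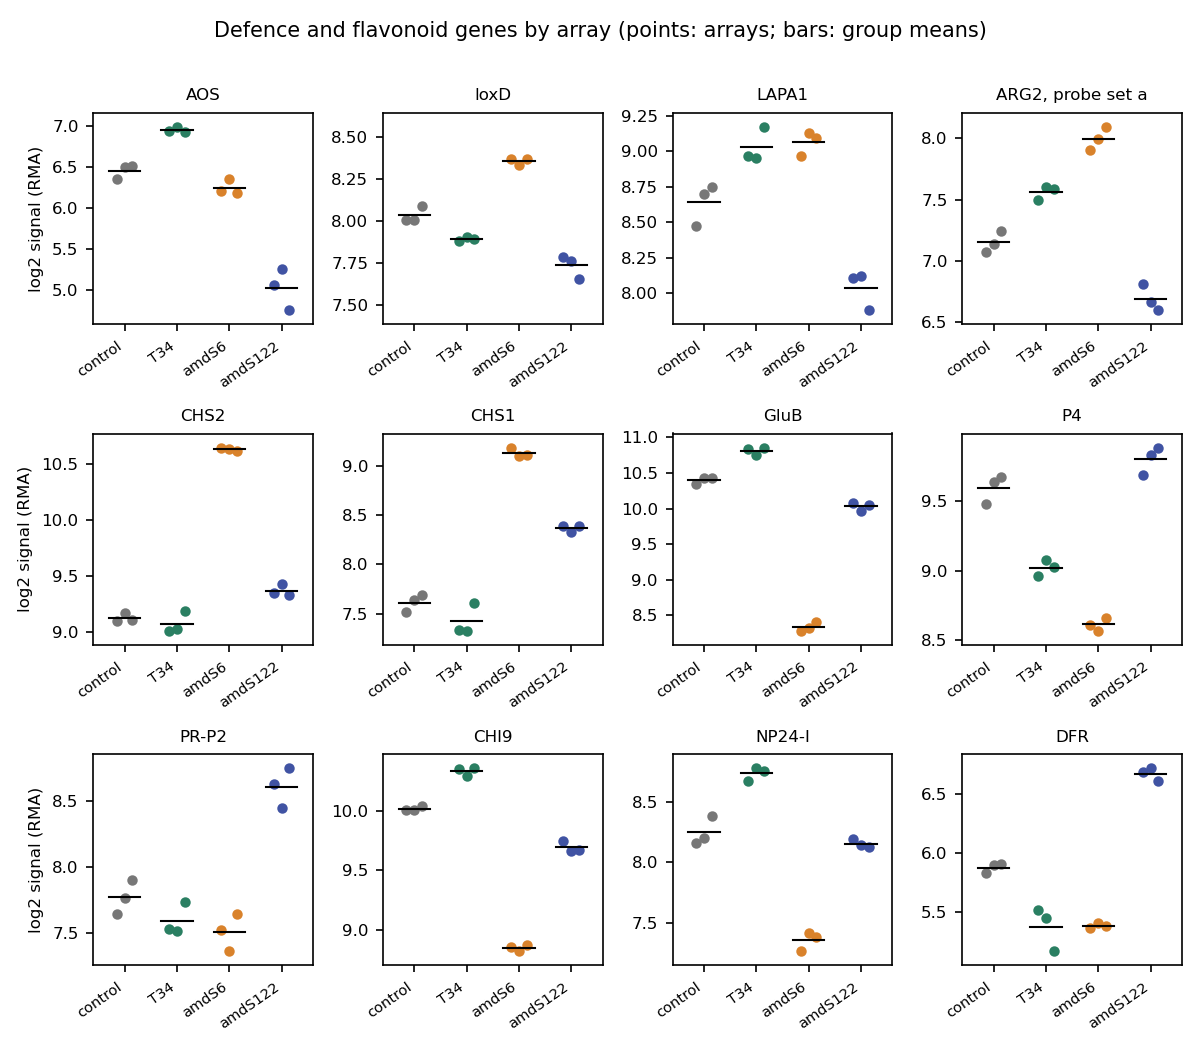
Log2 signal (y axis, range differs between panels) of wound, flavonoid and PR genes on each array of the 4 groups, with bars for the group means. GluB, CHI9 and NP24-I lie lowest with amdS6, AOS, loxD, LAPA1 and ARG2 lie lowest with amdS122, and CHS2 lies highest with amdS6.

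Hormone genes other than those of jasmonate held 1 call. Of 15 auxin probe sets 3 were lower (20%, against 18.7% of all) and 1 was higher (6.7%, against 19.4%). The 1 called was LOC543701, annotated as an auxin response protein. It read 6.50, 6.74 and 6.82 with amdS6, 4.94, 5.41 and 5.18 with amdS122, 7.99, 8.01 and 8.15 in control and 8.10, 8.16 and 7.97 with T34, so that both transformants lay below control and amdS122 lowest. Of 49 ethylene probe sets 16 were lower (32.7%, against 18.7% of all), 2 higher (4.1%, against 19.4%) and none called. The median was -0.02 (log2). The receptor ETR4 was 1.67-fold lower with amdS122 (5.67, 5.64 and 5.84 against 5.00, 5.04 and 4.90), the ethylene response factor ERF3 1.57-fold lower, and ER24, an ethylene-responsive gene, 1.29-fold higher. With the RNA quality signal as a covariate 9 of the 49 were lower and 1 higher, where 1382 and 1275 of all 10038 probe sets were. Of 14 gibberellin and abscisic acid probe sets 2 were higher and 2 lower (14.3% each, against 19.4% and 18.7% of all). GA20OX1, a gibberellin 20-oxidase, was 1.47-fold higher with amdS122 (10.23, 10.18 and 10.17 against 10.86, 10.72 and 10.69). Scaled on the hybridisation controls no ethylene, gibberellin or abscisic acid probe set of these lists was higher, where 62 of all 10038 were.

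Of 21 transcription factor probe sets 8 were lower (38.1%, against 18.7% of all), 2 higher and 1 called, with a median of -0.10 (log2). With the RNA quality signal as a covariate 3 of the 21 were lower and 1 higher, where 1382 and 1275 of all 10038 probe sets were. Scaled on the hybridisation controls none of the 21 was higher, where 62 of all 10038 were. NAC1 read 6.68, 6.58 and 6.55 with amdS6 and 5.71, 5.51 and 5.49 with amdS122 (2.05-fold lower, adjusted p = 5.76e-07), while control read 8.34, 8.38 and 8.34 and T34 7.89, 8.06 and 7.87. The call of NAC1 was lost with arrays centred on their medians (log2 -0.996), after further quantile normalization (-0.9987), with the RNA quality signal as a covariate (-0.92), without amdS6 replicate 1 (-0.994) and without amdS122 replicate 3 (-0.995). WRKYIId-4, a WRKY factor, was 1.83-fold lower, and TAGL1, a MADS-box gene known from fruit ripening, was 1.43-fold higher at signals of 4.15 to 4.79. HY5, a bZIP factor that promotes development in light, was 1.80-fold lower (8.03, 8.10 and 8.21 against 7.24, 7.39 and 7.17, adjusted p = 2.56e-05) and its level was lower with T34 too, at 7.18, 7.46 and 7.51. The photoreceptor PHYA was 1.24-fold lower. The 11 light signaling probe sets as a whole had 2 lower and 2 higher (18.2% each, near the 18.7% and 19.4% of all) and a median of 0.04. None of the 12 photosynthesis probe sets passed the adjusted p.

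Genes of nitrogen assimilation and of phosphoenolpyruvate carboxylase (PEPC), an enzyme that supplies carbon skeletons for amino acids, were mostly higher with amdS122. Of 14 probe sets 10 were higher (71.4%, against 19.4% of all), 1 was lower (7.1%, against 18.7%) and none was called. The list includes probe sets of PEPC, nitrate reductase and haemoglobin that the paper lists as changed. That choice was made on these same arrays, so that these shares are in part fixed by it. The median log2 difference was 0.43. PPCK1, the kinase that phosphorylates PEPC, read 7.94, 8.04 and 8.02 with amdS6 and 8.90, 8.79 and 8.85 with amdS122, with control at 6.72, 6.75 and 6.76 and T34 at 5.56, 5.43 and 5.22. The paper describes the probe set with these changes from control as phosphoenolpyruvate carboxykinase, a different enzyme. The groups did not overlap and stood in the order T34, control, amdS6 and amdS122. The 2 probe sets of PEPC had that order too and were 1.76-fold and 1.89-fold higher with amdS122 (10.72, 10.88 and 10.84 against 9.91, 10.06 and 10.02 on the first). The transcript of non-symbiotic haemoglobin-1, which binds nitric oxide and oxygen, was 1.76-fold higher (10.24, 10.25 and 10.28 against 9.45, 9.43 and 9.44, adjusted p = 5.82e-08).

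Nitrate reductase, the first enzyme of nitrate assimilation, was 1.32-fold higher with amdS122 (12.04, 11.97 and 12.02 against 11.67, 11.58 and 11.59, adjusted p = 0.000154). Glutamine synthetase gts1 was higher by 1.38-fold and 1.40-fold on its 2 probe sets, and the ammonium transporter AMT1-2 by 1.47-fold (11.36, 11.15 and 11.10 against 11.74, 11.68 and 11.85). For gts1 and AMT1-2 the levels in control lay between those of the transformants, with log2 differences from control of -0.28 and -0.30 for amdS6 and 0.20 and 0.25 for amdS122 (gts1 by its brighter probe set). The 1 member that was lower was gdh1, glutamate dehydrogenase, by 1.53-fold (8.41, 8.40 and 8.47 against 7.82, 7.81 and 7.80). Scaled on the hybridisation controls 4 of the 14 remained higher and 3 were lower, where 62 and 6132 of all 10038 probe sets were. With this scaling nitrate reductase (log2 0.07), AMT1-2 (0.22) and gts1 (0.13 and 0.15) no longer passed the adjusted p.

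Cell wall genes moved in both directions, with 13 of 43 probe sets higher, 13 lower and a median of -0.02 (log2). Each share was 30.2%, where all probe sets gave 19.4% higher and 18.7% lower. Next to CELLULASE (9.52, 9.54 and 9.63 with amdS6 against 8.61, 8.61 and 8.48 with amdS122), the lower members were led by xyloglucan-modifying enzymes. XTH16 was 1.92-fold and 1.90-fold lower on a pair of probe sets and XET4 1.76-fold. The higher members included the expansins EXP12 by 1.42-fold and exp11 by 1.28-fold and the endo-1,4-β-glucanase Cel1 by 1.29-fold (8.99, 8.92 and 8.98 against 9.34, 9.25 and 9.39). Of 35 carbon metabolism probe sets 11 were higher (31.4%, against 19.4% of all) and 4 lower (11.4%, against 18.7%). LIN8, an invertase, was 1.48-fold higher, sucrose synthase sus3 1.42-fold higher, and the hexose transporter HT1 1.54-fold lower. Scaled on the hybridisation controls no cell wall or carbon metabolism probe set was higher, and 26 of the 43 and 16 of the 35 were lower. Of all 10038 probe sets 62 were higher and 6132 lower with this scaling, so that these counts set neither list apart as lower.

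The remaining calls with a symbol were lower with amdS122. PDH read 10.64, 10.64 and 10.66 with amdS6 and 8.93, 8.81 and 8.71 with amdS122 (3.56-fold, adjusted p = 1.29e-09), with control at 10.04, 10.06 and 9.95. TKR was 2.86-fold lower (7.16, 7.14 and 7.18 against 5.67, 5.74 and 5.53). ST2, a sulfate transporter, was 2.11-fold lower (6.76, 6.42 and 6.67 against 5.55, 5.55 and 5.52), and both transformants lay below control (7.18, 7.29 and 7.27). Among genes that carry only an identifier, LOC544001 was 2.97-fold lower, LOC543955 2.48-fold, LOC543971 2.41-fold and LOC543730 2.03-fold. LOC543955 and LOC543730 each have a further probe set that did not pass (log2 -0.03 and 0.09), and the call of LOC543730 was lost without amdS6 replicate 1 (log2 -0.99), amdS6 replicate 3 (-0.99), amdS122 replicate 1 (-0.997) or amdS122 replicate 3 (-0.97), with arrays centred on their medians (-0.98) and with array weights (-0.99). A probe set described as miraculin, a protein of the family of trypsin inhibitors, was 2.20-fold lower (7.37, 7.28 and 7.42 against 6.13, 6.44 and 6.10) and a probe set described as a transcription factor 2.12-fold lower. Control was higher than either transformant for both, with log2 differences of -2.42 and -1.86 for amdS6 and -3.56 and -2.94 for amdS122. The call of the transcription factor was lost with the RNA quality signal as a covariate (log2 -0.97).

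The largest differences were in probe sets without a gene name. The lowest relative to amdS6 read 9.82, 9.72 and 9.83 with amdS6 and 7.44, 7.50 and 7.62 with amdS122, with control at 8.87, 8.84 and 8.92 (log2 difference of the transformants -2.27). The next read 9.15, 9.21 and 9.22 against 7.01, 7.09 and 6.99, with control at 7.22, 7.21 and 7.25 (log2 difference -2.16). The 1 unnamed probe set called higher was at 1.04 (log2), and it lost its call without amdS6 replicate 3 (0.994), with the RNA quality signal as a covariate (0.92) and with scaling on the hybridisation controls (0.71). The 72 calls belong to 62 transcript clusters of the array design, 10 of which hold several called probe sets, so that the number of genes behind the calls is smaller than the number of probe sets.

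**Figure D4:**
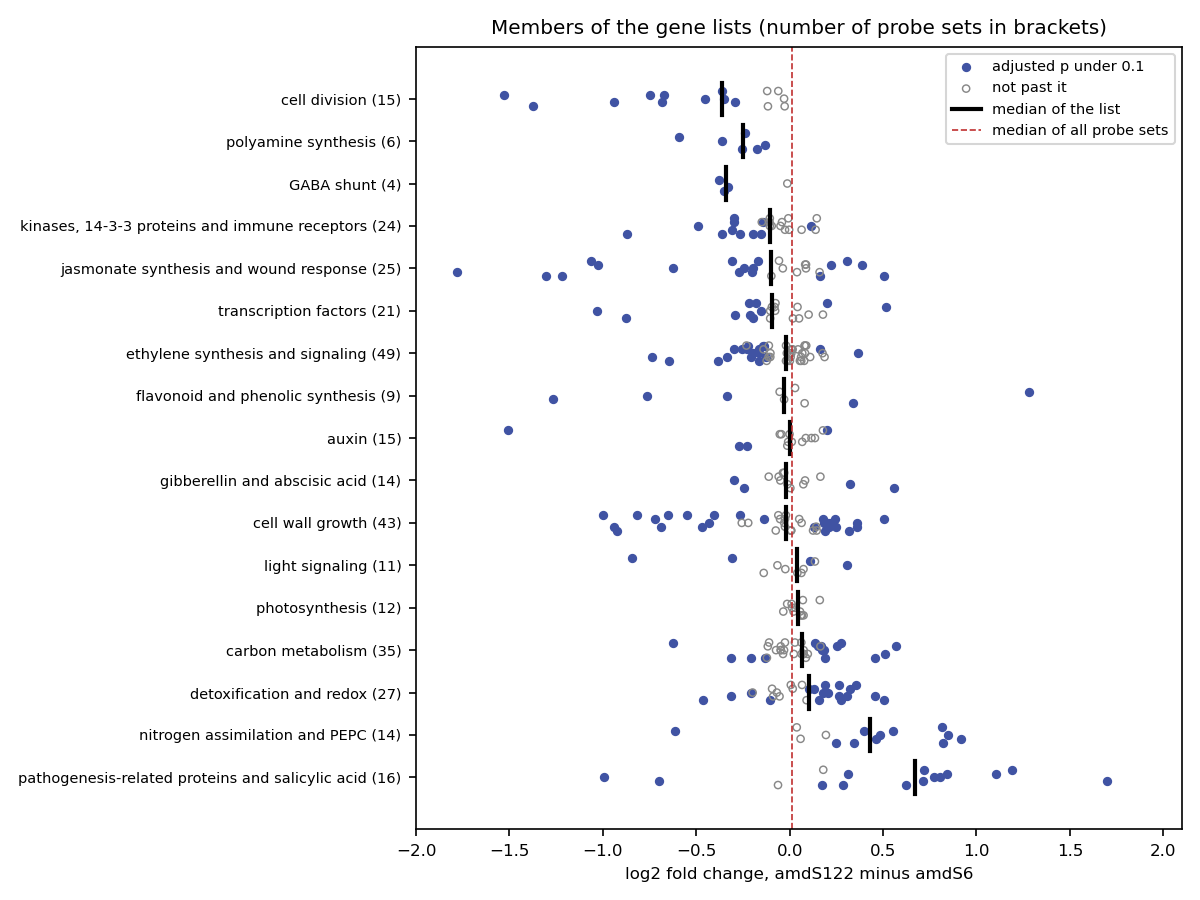
Log2 fold change of amdS122 minus amdS6 (x axis) for every probe set of 17 gene lists (rows), filled where the adjusted p was under 0.1. Black bars mark list medians, which run from -0.36 for cell division to 0.67 for PR proteins, and the dashed line marks the median of all probe sets at 0.02.

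Where the called probe sets stood relative to plants without a transformant was read from the contrasts with control, which share the control arrays. Of the 66 probe sets lower with amdS122 than with amdS6, 58 were higher than control with amdS6 at the adjusted p and 5 lower (median log2 difference 0.61), and 60 were lower than control with amdS122 and 3 higher (median -0.72). With T34, 18 were higher than control, 3 were lower and 45 passed in neither direction (median 0.04). LOC543701, NAC1, miraculin and the transcription factor named above were called lower than control with both transformants, and they are the 4 of these 66 that were called lower than control with amdS6. Of the 6 probe sets higher with amdS122, none was higher than control with amdS6 and 5 were lower (median -0.74), and 4 were higher than control with amdS122 and 1, GluB, was lower (median 0.50). Since the calls select large differences between the transformants, opposite positions around control are in part fixed by that choice.

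**Figure D5:**
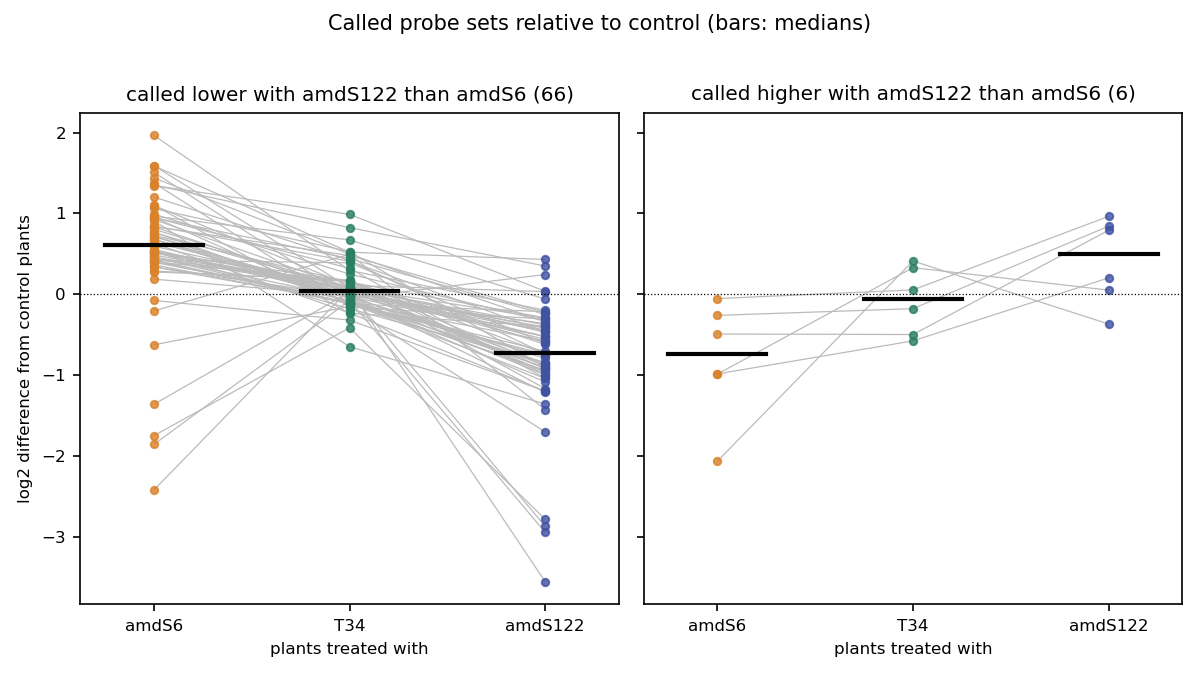
Log2 difference from control (y axis) of the 66 probe sets called lower (left) and the 6 called higher (right) with amdS122 than with amdS6, for plants treated with amdS6, T34 and amdS122. Grey lines join the values of a probe set and bars mark medians, which for the 66 fall from 0.61 with amdS6 to 0.04 with T34 and -0.72 with amdS122.

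The tables of the paper list 99 probe sets as lower and 6 as higher than control with both transformants, a choice made on these arrays and therefore not independent of them. Within them amdS122 lay further from control than amdS6 for most. Of the 99, 59 were lower with amdS122 than with amdS6 at the adjusted p (59.6%, against 18.7% of all) and 9 were higher (9.1%, against 19.4%). The calls among them were 4, all lower, and the median log2 difference was -0.30. Among the processes with 4 or more members the share of lower ones ran from 4 of 4 in lipid metabolism, 11 of 15 in transcription and translation and 9 of 14 in signaling to 5 of 10 in defense, 4 of 9 in carbohydrate metabolism, 1 of 4 in the hormonal response and 1 of 6 in detoxification. The phospholipase PLDb1 was 1.39-fold lower with amdS122 (7.64, 7.51 and 7.66 against 7.17, 7.10 and 7.11) and the glycosyltransferase twi1 1.66-fold lower (10.35, 10.40 and 10.42 against 9.72, 9.73 and 9.54), where control read 10.21, 10.19 and 10.24 for PLDb1 and 11.79, 11.71 and 11.57 for twi1. The 6 listed as higher were all higher with amdS122 than with amdS6 at the adjusted p (median 0.61).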

How the data were processed

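RNA from aerial parts was amplified, labelled and hybridised to the Affymetrix Tomato Genome Array. The authors deposited log2 signals per probe set, computed with the RMA method (background-corrected, quantile-normalized) in Affymetrix Expression Console, whose version is not given in the sources used here. RMA brings the arrays to a like distribution, so that values are relative to the other probe sets, although array medians were 7.84 to 7.87 with amdS6 and 7.80 to 7.82 with amdS122. The 10209 features comprise 10038 tomato probe sets, 108 control probe sets and 63 reporter probe sets, and the reporters were left out. The fit used limma 3.58.1 in R 4.3.3 on the 12 arrays (1 mean per group, moderated variances, 8 residual and 3.69 prior degrees of freedom), and p-values were adjusted over all probe sets by the Benjamini-Hochberg method. The limits of the methods (adjusted p under 0.1, 2-fold) were kept, with limma in place of SAM. The array annotation names 909 probe sets. Precision is limited by the number of arrays.

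The members and gene lists were chosen with earlier results of these data known, and lists were completed by hand after values had been seen. Named were called probe sets with a symbol or description, up to 15 per direction, up to 2 per direction with neither, genes of the real-time PCR assays, PEPC, PPCK1, nitrate reductase and haemoglobin, up to 3 members per list and direction, and relatives of called genes. Other genes named were chosen after their values were seen. Alternatives were a replicate block, the 6 arrays alone, 3 other scalings, RNA quality as a covariate, a filter on low signal, other variance models, array weights, linear means, other limits, an F test and leaving out each array.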

Additional observations from a re-analysis of the deposited data

How the results depend on the processing

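The count of 72 calls (6 higher, 66 lower) lay between 65 and 78 in the alternatives with the same limits other than scaling on the hybridisation controls, which gave 193 calls, 1 higher and 192 lower. A fold limit of 1.5 gave 320 (65 higher, 255 lower) and no fold limit 3831 (1952 higher, 1879 lower). Leaving out 1 array gave 71 to 78 calls, 5 to 7 of them higher and 64 to 72 lower. RNA quality as a covariate gave 73, of which 60 were among the 72. With the replicate block 72 were called, all of them the same probe sets, and with no fold limit 4067 passed in place of 3831. The deviations of amdS6 and amdS122 arrays with the same number correlated at -0.0023, 0.16 and 0.040. With 3 arrays per group these values cannot decide whether the numbers pair the samples. Over all probe sets 4638 differences were below 0 on the deposited scale, and 6132 were lower at the adjusted p with scaling on the hybridisation controls. Among the genes named in the text, values that changed sign included the following. Scaled on the hybridisation controls LAPA2 was at -0.25 and PR-5 at -0.15 (log2). With RNA quality as a covariate the second H1 probe set was at 0.011, CycA3 at 0.019, cdc2A-2 at 0.021, the dim PR1b1 probe set at 0.057 and PR-5 at -0.063. With arrays centred on their medians CycA3 was at 0.0081 and CDKC at 0.011, and with further quantile normalization CDKC was at 0.014. Leaving out 1 array gave -0.076 to 0.017 for CDKC and -0.11 to 0.018 for the dim PR1b1 probe set. None of these listed sign-changed values passed the adjusted p. With 3 pools per group and 1 clone per copy number, differences near 2-fold change sides easily, and signals near the floor carry little information.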

Other observations

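Polyamine and γ-aminobutyrate (GABA) genes were lower with amdS122, in lists made after values had been seen. All 6 probe sets of polyamine synthesis were lower at the adjusted p (100%, against 18.7% of all), with a median log2 difference of -0.25. The largest difference was that of ODC, ornithine decarboxylase, by 1.51-fold, with 8.67, 8.67 and 8.73 for amdS6, 8.02, 8.09 and 8.19 for amdS122 and 9.52, 9.60 and 9.55 for control. With RNA quality as a covariate 4 of the 6 were lower, where 1382 of all 10038 probe sets were. Of 4 GABA shunt probe sets 3 were lower (75%, against 18.7% of all). These were the glutamate decarboxylase gad2 by 1.30-fold and the GABA transaminases GABA-TP2 and GABA-TP1 by 1.28-fold and 1.26-fold.

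Of 24 probe sets of protein kinases, 14-3-3 proteins and immune receptors 10 were lower and 1 was higher. These shares were 41.7% and 4.2%, against 18.7% and 19.4% of all probe sets. The lower ones included the kinase MKK3, 1.83-fold lower, and the 14-3-3 protein tft10, 1.40-fold lower. Of 27 detoxification and redox probe sets 14 were higher (51.9%, against 19.4% of all) and 4 lower (14.8%, against 18.7%). With RNA quality as a covariate 8 of the 27 were higher and 3 lower, where 1275 and 1382 of all 10038 probe sets were. Of 19 terpene and carotenoid probe sets 7 were higher (36.8%, against 19.4% of all) and 3 lower (15.8%, against 18.7%). With that covariate 3 of the 19 were higher and 3 lower, against the same 1275 and 1382 of all 10038. The members past the adjusted p included the sesquiterpene synthase SSTLE1, 1.79-fold lower (7.70, 7.71 and 7.66 against 6.89, 6.77 and 6.89) and the phytoene synthase Psy1, 1.27-fold higher on its brightest probe set. Outside this list, the probe set described as neryl diphosphate synthase 1 was 1.59-fold lower. An unnamed probe set of the same transcript cluster was the weakest call (log2 -1.002). The proline transporter ProT1 was 1.38-fold higher. Scaled on the hybridisation controls, Psy1, ProT1 and all higher members of the redox list no longer passed the adjusted p.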
